A study of Mus musculus with 8 samples.

Results

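The genes described here are 31 genes of the DNA damage checkpoint and of repair by homologous recombination, taken by gene name from a table of 55487 mouse genes. The series asked how ursodeoxycholic acid (UDCA), a secondary bile acid, affects J774A.1 cells, a tumour-derived mouse macrophage line, under lipopolysaccharide (LPS), the outer membrane molecule of bacteria to which macrophages respond. After 24 h, 4 libraries were made from cells given LPS alone (1 μg/mL) and 4 from cells given LPS (1 μg/mL) together with UDCA (1 mM). Both groups had LPS, cells free of LPS were not analysed here, and every difference is thus one between levels under LPS in a single cell line. Nothing in the labels says whether the 4 libraries of a group came from separate cultures, so the p-values measure only the spread between these libraries.

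Levels are given in TPM, in which the reads of a gene are divided by its length and scaled to a common total, so that genes can be set beside each other. The table holds no read counts, the depth of each library is therefore unknown, and the error given is the SD between 4 libraries. Fold changes are differences of log2(TPM + 1), tested with limma over the 11796 genes averaging 1 TPM or more, and this scale understates the change of genes with few TPM. A gene is called lower or higher at a false discovery rate (FDR) under 0.05 together with a fold change of at least 2, and "rose" or "fell" is used of genes past the FDR alone. The TPM columns summed to between 958918 and 977485, and none of the 28 pairs of libraries was identical. The macrophage markers on the list were present except Mertk, which was listed at 0 in all 8 libraries. Of the other 9, 4 were called lower, with Itgam and Lyz2 lowest at log2 fold changes of -2.91 and -2.19, and 2 were called higher, Fcgr1 at 1.48 and Adgre1 at 1.27. The summed markers ran from 4240 to 4472 TPM under LPS alone and from 2081 to 2338 TPM after LPS + UDCA. The 13 markers of epithelial, stromal, endothelial, lymphoid, liver and red blood cells together reached between 0.28 and 2.12 TPM in any library, and 6 of them were at 0 throughout.

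When both strands of DNA break, the ends are bound by the MRE11, RAD50 and NBN complex, trimmed to single strands, and paired with the sister chromatid, from which the missing sequence is copied. BRCA1, BARD1, PALB2 and BRCA2 prepare the trimmed ends for this pairing, while the Fanconi anemia proteins open and repair crosslinks between the strands at stalled forks. The kinases ATM and ATR sense breaks and stalled forks and signal through CHK2 and CHK1 to halt the cell cycle, with claspin, TOPBP1, timeless and tipin as helpers at the fork. Recombination works in S and G2 phase, when a sister chromatid is present, and many of its genes are transcribed mainly in cycling cells.

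Promoters were looked at because many of these genes moved together. The RefSeq table on GRCm38.p6 held promoters, from 250 bases before to 50 after the start, for 23 of the 31 genes. Exo1, Tipin, Fancd2 and Rbbp8 were among those without one. Motifs known from cell cycle genes stand in capitals in the stretches before the start shown here. They are the E2F site (searched as TTTCCCGC, TTTGGCGC, TTTCGCGC or TTTGCCGC) and the CCAAT box (searched as CCAAT), each on either strand, and the letters of the first do not contain those of the second. The first 3 genes were called lower and hold CCAAT boxes, Bard1 was called lower and holds an E2F site, Topbp1 fell by less than 2-fold and holds an E2F site, and Mre11a did not pass the FDR and holds CCAAT boxes. In Bard1 the first capitals mark a further element of cell cycle genes, the CHR (searched as TTTGAA). The start is that of RefSeq. Gene positions given below are from GENCODE M21, whose start lies within the stretch shown for Clspn and Topbp1. In Clspn the second CCAAT box lies after the GENCODE start.
Brip1, chr11:86201198-86201317, minus strand: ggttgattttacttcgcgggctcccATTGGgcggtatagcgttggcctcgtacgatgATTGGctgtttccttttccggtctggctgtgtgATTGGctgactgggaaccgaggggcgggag
Clspn, chr4:126556886-126556979, plus strand: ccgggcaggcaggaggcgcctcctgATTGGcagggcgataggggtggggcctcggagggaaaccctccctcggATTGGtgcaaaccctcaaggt
Fanca, chr8:123318577-123318651, minus strand: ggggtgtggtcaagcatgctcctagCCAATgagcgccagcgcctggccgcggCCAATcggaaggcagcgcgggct
Bard1, chr1:71103149-71103222, minus strand: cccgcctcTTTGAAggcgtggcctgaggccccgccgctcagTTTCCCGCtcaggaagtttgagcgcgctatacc
Topbp1, chr9:103305173-103305230, plus strand: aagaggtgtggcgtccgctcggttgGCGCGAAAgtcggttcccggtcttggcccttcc
Mre11a, chr9:14784556-14784645, plus strand: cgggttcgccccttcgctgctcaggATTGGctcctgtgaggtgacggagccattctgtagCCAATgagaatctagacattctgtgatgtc

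Among the 26 promoters of the 23 matched genes, 15 (57.7%) held a CCAAT box, against 38.5% of 11187 promoters of genes tested and 37.4% of all 32851 promoters in the table. An E2F site was present in 8 of the 26 (30.8%), against 4.19% and 2.26%. The CHR was present in 1 of them, that of Bard1 (3.85%, against 12.4% and 17.9%). The E2F letters stood in 2 of the 11 promoters of genes called lower, Bard1 and Clspn, in Clspn after the start, and in 6 of the 15 promoters of the other members, those of Brca2, Chek2, Topbp1, Msh6 and both promoters of Rad51c. For the CCAAT box the counts were 8 of 11 and 7 of 15. Of 926 promoters of all genes called lower, 42.9% held a CCAAT box, 7.13% an E2F site and 19.4% the CHR. These are matches of letters in a fixed window, given as a description.

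With LPS + UDCA most of the 31 genes had lower levels, and a few, above all Rbbp8, had higher ones. Of the 30 genes tested, 13 were called lower, a call made for 8.44% of all genes tested, and 1 was called higher, against 8.71% of all genes. At the FDR alone 21 fell and 5 rose, against 32.3% and 40.2% of all genes tested, and 4 passed no threshold. Fancb had too little RNA for the filter, and Bard1, Exo1, Fanci and Brip1 passed it through their LPS libraries alone, with means under 1 TPM in LPS + UDCA. Without a filter all 31 genes were tested, and again 13 were called lower and 1 higher, where the rates over 23729 genes were 4.26% and 4.40%. In 22 of the 31 genes every LPS + UDCA library lay below every LPS library and in 4 every one lay above, against 29.9% and 37.0% of the genes tested, and the groups overlapped for Rad51c, Brca2, Mre11a, Rad50 and Atm. The median log2 fold change of the 31 genes was -0.90, beside 0.02 over all genes without a filter. With the filter it was -0.91 for the 30 genes tested, beside 0.08 over all 11796 genes tested. In bulk RNA, fewer cells in which a gene is on and less RNA in each cell cannot be told apart.

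**Figure D1:**
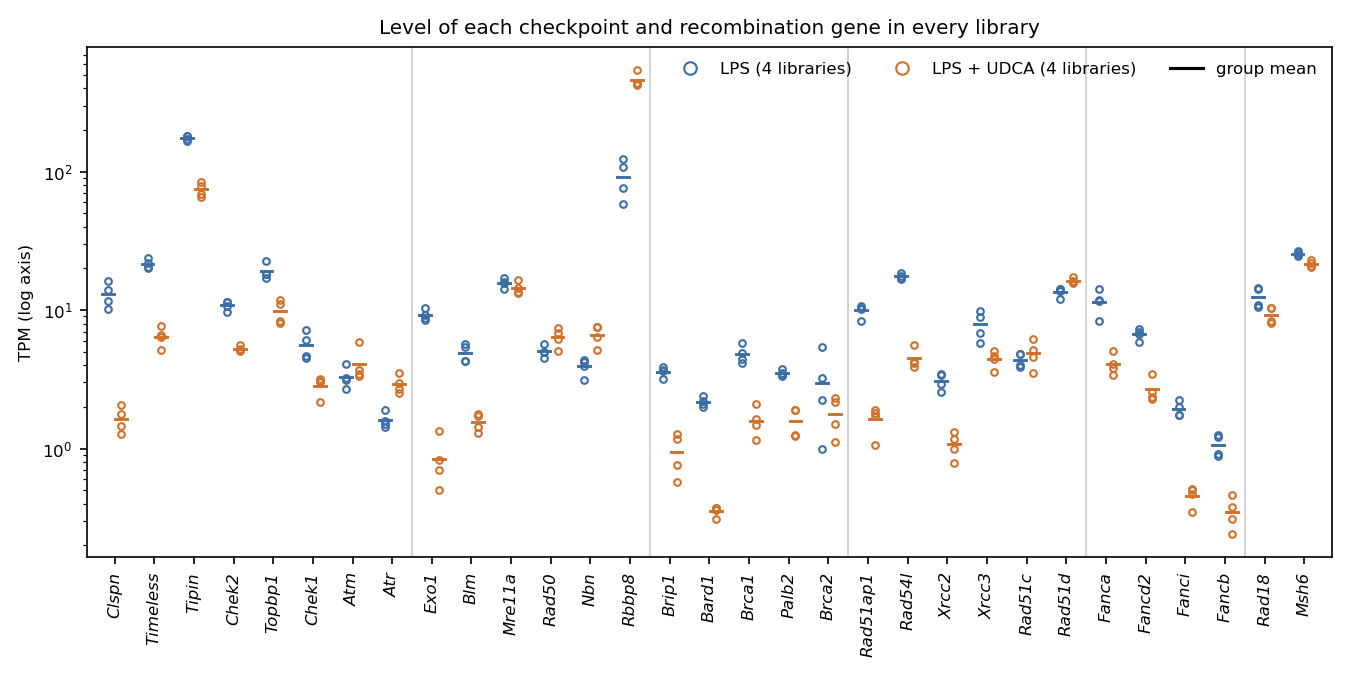
TPM (log axis) of each of the 31 genes in every library, with LPS in blue, LPS + UDCA in orange and a bar at each group's mean; grey lines part the roles, from checkpoint genes at the left to Rad18 and Msh6 at the right. Points of the groups are apart for 26 genes, Exo1 and Clspn drop furthest, and Rbbp8 is the one gene that stands far above its LPS level.

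Markers of cycling cells fell too, as did most of these genes. All 14 markers fell and 13 were called lower, against 32.3% and 8.44% of all genes tested. Their median log2 fold change was -2.15, beside 0.08 over all genes tested. Their summed level ran from 1151 to 1206 TPM under LPS alone and from 298.9 to 311 TPM after LPS + UDCA. The lowest were Aurkb, a mitotic kinase, at a log2 fold change of -3.65, and Ccna2, the cyclin of S and G2 phase, at -3.49. Mcm2, a subunit of the replicative helicase, was the 1 that fell by less than 2-fold. The part of cell cycling in the lower levels of the repair genes was not tested.

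Among the checkpoint genes the fork proteins and the effector kinases fell, and the apical kinases Atr and Atm did not. Of 8 genes, 3 were called lower (Clspn, Timeless and Tipin), 3 fell by less than 2-fold (Chek2, Topbp1 and Chek1), 1 rose (Atr) and 1 passed no threshold (Atm). Over all genes tested, 8.44% were called lower, and at the FDR alone 32.3% fell and 40.2% rose.
Clspn encodes claspin, the adaptor through which ATR activates CHK1, and lies on chromosome 4 from 126556935 to 126593903 of GRCm38. It was listed at 16.1, 11.7, 10.2 and 14.1 TPM in the LPS libraries, in the order of replicates 1 to 4, and at 1.78, 1.27, 1.46 and 2.07 TPM in those with UDCA added. The lowest LPS library held nearly 5-fold more than the highest LPS + UDCA library, and the group means of 13.03 ± 2.61 and 1.65 ± 0.353 TPM (SD, n = 4) differed 7.92-fold. The log2 fold change came to -2.40 (its standard error 0.15, limma adjusted p = 8e-07).
Timeless and Tipin encode partners that ride with the replication fork and stabilise it when it stalls. Timeless, on chromosome 10 from 128232065 to 128252941, had 20.3, 21.9, 20.3 and 23.9 TPM under LPS alone and 7.67, 6.34, 6.58 and 5.19 TPM after LPS + UDCA, where 29.9% of the LPS level was left (log2 fold change -1.61, limma adjusted p = 9.9e-07). Tipin, on chromosome 9 from 64281581 to 64305424, had the highest level of all 31 genes with LPS. Its libraries ran from 168 to 182 TPM under LPS alone and from 66.2 to 83.8 TPM after LPS + UDCA, and 42.3% of the LPS level was left (log2 fold change -1.24, limma adjusted p = 5.4e-07).

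Chek2 and Chek1, the kinases that carry the signal from ATM and ATR, both fell by less than 2-fold on the TPM + 1 scale. Chek2 had 11.4, 10.8, 11.5 and 9.67 TPM under LPS alone and 5.62, 5.25, 5.15 and 5.07 TPM after LPS + UDCA (log2 fold change -0.92, limma adjusted p = 3.9e-06). Chek1 had 7.21, 4.51, 4.67 and 6.07 TPM and then 3.17, 2.17, 3.05 and 3.0 TPM (log2 fold change -0.77, limma adjusted p = 0.0013). The groups were apart for each, with 48.6% and 50.7% of the LPS level left. Topbp1, the activator of ATR, fell from 19.0 ± 2.47 to 9.79 ± 1.88 TPM (log2 fold change -0.90, limma adjusted p = 0.00021).
The kinases above them had few transcripts and did not fall. Atr, on chromosome 9 from 95857597 to 95951781, had 1.90, 1.58, 1.5 and 1.42 TPM under LPS alone and 2.69, 2.53, 2.98 and 3.52 TPM after LPS + UDCA. Every LPS + UDCA library was above every LPS library, and the log2 fold change was 0.59 (95% interval 0.33 to 0.86, limma adjusted p = 0.0014). Exons of Atr share 726 bases with the antisense gene 1700065D16Rik, which had 0.0875 and 0.14 TPM on average.
Atm had 4.05, 3.14, 2.69 and 3.23 TPM under LPS alone and 5.88, 3.32, 3.69 and 3.47 TPM after LPS + UDCA. The groups overlapped, LPS + UDCA replicate 1 stood above the other 3 of its group, and the log2 fold change of 0.23 had a 95% interval from -0.14 to 0.61 (limma adjusted p = 0.23). Without that library the log2 fold change was 0.08.

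**Figure D2:**
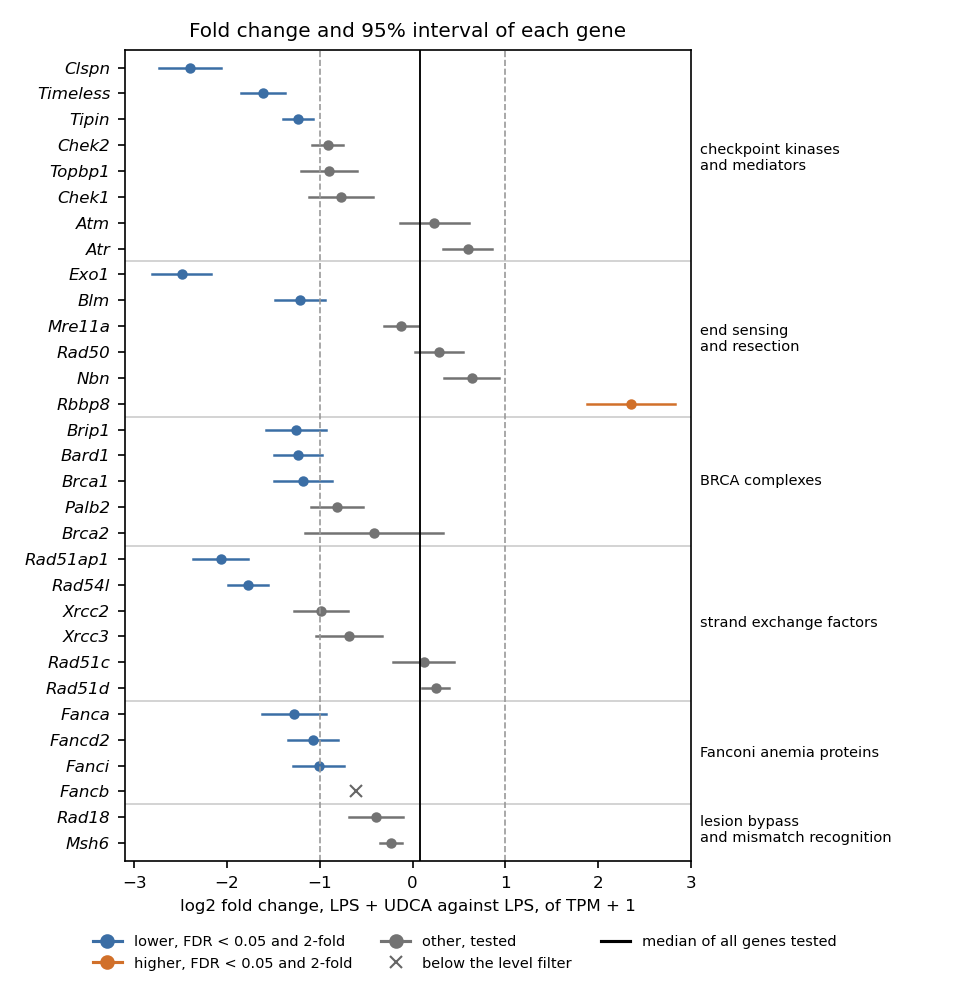
Log2 fold change of TPM + 1, LPS + UDCA against LPS, of each gene (points) with its 95% interval from limma (lines), by role; dashed lines mark a 2-fold change, the black line the median of all genes tested, and Fancb, below the level filter, is a cross. In 4 of the 6 roles some tested genes lie left of the lower dashed line and others between the dashed lines, and Rbbp8 alone lies right of the upper one. The cross of Fancb lies between the dashed lines.

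The genes for binding and trimming broken ends showed the widest split, from the lowest to the highest fold change among the 31 genes. Exo1 encodes the long-range resection nuclease and lies on chromosome 1 from 175880581 to 175913489. It had 10.3, 8.55, 9.20 and 8.75 TPM under LPS alone and 1.34, 0.70, 0.50 and 0.82 TPM after LPS + UDCA, so that 9.12% of the LPS level was left (log2 change -2.49, standard error 0.14, limma adjusted p = 4.3e-07). Blm, the helicase mutated in Bloom syndrome, which works with EXO1 and dissolves recombination intermediates, was called lower as well. It had 5.69, 4.28, 4.32 and 5.41 TPM and then 1.30, 1.43, 1.77 and 1.71 TPM (log2 fold change -1.21, limma adjusted p = 1.5e-05).

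Rbbp8 encodes CtIP, the partner of MRE11 that starts resection, and lies on chromosome 18 from 11633276 to 11745221. It had 108, 123.54, 76.8 and 58.8 TPM under LPS alone and 419.9, 440.2, 430.5 and 541 TPM after LPS + UDCA. The LPS libraries varied about 2-fold among themselves, yet the highest of them was far below the lowest LPS + UDCA library. The means of 91.8 ± 29.4 and 458 ± 56.2 TPM differed 4.99-fold (log2 change 2.36, standard error 0.21, 95% interval 1.88 to 2.83, limma adjusted p = 7.6e-06). With each library left out in turn the log2 fold change was between 2.16 and 2.52. Exons of Rbbp8 share 402 bases with an antisense gene, and 3.94% of the 31-base words of its transcripts also occur in other genes.
With LPS + UDCA, Rbbp8 was the largest part of the summed RNA of the 31 genes. Under LPS alone Tipin was the largest, at 32.5% to 36.9%. Rbbp8 made up between 11.9% and 23.3% of the summed TPM of the 31 genes with LPS and between 65.6% and 71.5% with LPS + UDCA. Their sum was 479 to 554 TPM under LPS alone and 640.3 to 757 TPM after LPS + UDCA, higher in every library. Without Rbbp8 and Tipin, the other 29 genes summed to between 234 and 265 TPM under LPS alone and to between 133 and 149 TPM after LPS + UDCA, lower in every library.

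**Figure D3:**
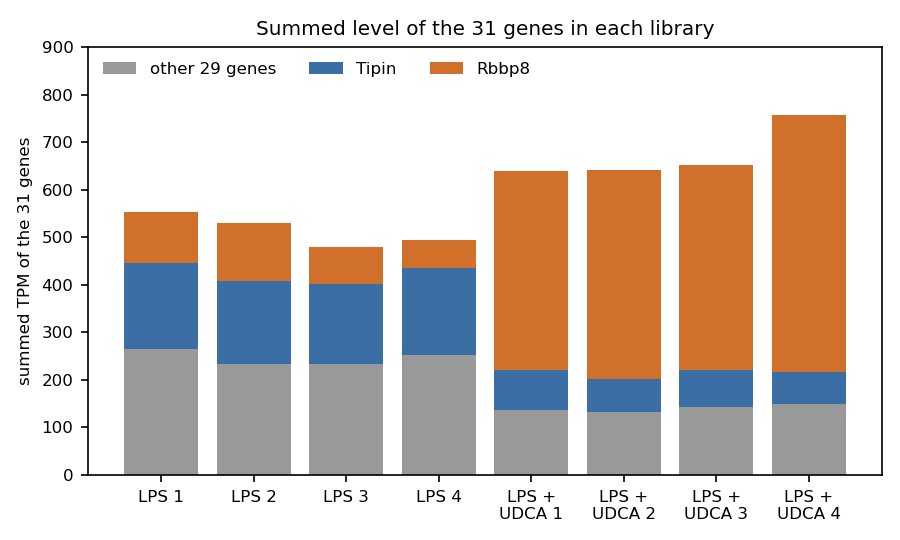
Summed TPM of the 31 genes in each of the 8 libraries (stacked bars from 0), with Rbbp8 in orange, Tipin in blue and the other 29 genes in grey. The orange part is at most 124 TPM in the LPS libraries and at least 419.9 TPM in the LPS + UDCA libraries, while the grey part is smaller in every LPS + UDCA library.

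The genes of the MRE11, RAD50 and NBN complex had fold changes under 2, in both directions. Nbn, on chromosome 4 from 15957925 to 15992589, had 4.37, 3.15, 3.95 and 4.19 TPM under LPS alone and 5.17, 6.37, 7.57 and 7.53 TPM after LPS + UDCA, with no overlap (log2 change 0.63, 95% interval 0.34 to 0.93, limma adjusted p = 0.0017). Rad50 had 4.99, 4.94, 4.48 and 5.68 TPM and then 5.04, 6.20, 6.87 and 7.41 TPM. Its groups overlapped, and its log2 fold change of 0.29 had an adjusted p of 0.048 from limma, which was between 0.0088 and 0.12 when one library was left out and 0.14 with median-of-ratios scaling. It stayed under 0.05 only without LPS replicate 4 or LPS + UDCA replicate 1. The adjusted p was 0.052 from limma with the replicate number as a block.
Mre11a, the nuclease, had 15.8 ± 1.16 TPM under LPS alone and 14.4 ± 1.499 TPM after LPS + UDCA. Its groups overlapped, and the log2 fold change of -0.12 had a 95% interval from -0.31 to 0.06 (limma adjusted p = 0.20). It passed the FDR with median-of-ratios scaling (-0.23, limma adjusted p = 0.023) and with quantile normalization (-0.20, limma adjusted p = 0.037). The same held without LPS + UDCA replicate 4 (-0.19, limma adjusted p = 0.046). Its exons share 154 bases with Ankrd49 on the opposite strand, which had 4.58 ± 0.638 and 9.25 ± 1.35 TPM.

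The genes of the BRCA complexes all had lower means. Bard1, the RING partner that BRCA1 needs for its ubiquitin ligase activity, lies on chromosome 1 from 71027498 to 71103146. It had 2.41, 2.22, 1.99 and 2.09 TPM under LPS alone and 0.31, 0.37, 0.37 and 0.36 TPM after LPS + UDCA, which left 16.2% of the LPS level. Its log2 fold change on the TPM + 1 scale was -1.23 (limma adjusted p = 9.9e-06), far smaller than the 6.18-fold difference of the means, because its levels are near the pseudocount.
Brca1, on chromosome 11 from 101488764 to 101551955, had 5.83, 4.44, 4.17 and 4.91 TPM under LPS alone and 1.47, 1.16, 1.63 and 2.09 TPM after LPS + UDCA (log2 fold change -1.18, limma adjusted p = 4.7e-05). Brip1, a helicase that binds BRCA1 and is also a Fanconi anemia gene, had 3.61, 3.19, 3.71 and 3.87 TPM and then 0.76, 1.18, 0.57 and 1.27 TPM (log2 fold change -1.25, limma adjusted p = 3.8e-05). For each of the 3 genes the lowest LPS library was about 2-fold or more above the highest LPS + UDCA library.
Palb2, the bridge between BRCA1 and BRCA2, fell from 3.495 ± 0.195 to 1.58 ± 0.384 TPM (log2 fold change -0.81, limma adjusted p = 0.00027). Brca2, which acts on the trimmed single strands, had 2.25, 5.43, 0.99 and 3.24 TPM under LPS alone and 2.17, 1.11, 2.33 and 1.5 TPM after LPS + UDCA. Its LPS libraries spread over more than 5-fold, the groups overlapped, and the log2 fold change of -0.42 had a 95% interval from -1.16 to 0.33 (limma adjusted p = 0.28). Without LPS replicate 3 it was -0.71 (limma adjusted p = 0.037), and without LPS replicate 2 it was -0.14 (limma adjusted p = 0.66).

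Among the 6 genes of strand exchange, Rad51ap1 and Rad54l fell most, and Rad51c and Rad51d did not fall. Rad51ap1, which stimulates strand invasion, lies on chromosome 6 from 126923050 to 126939587. It had 10.2, 10.7, 8.41 and 10.4 TPM under LPS alone and 1.71, 1.81, 1.06 and 1.91 TPM after LPS + UDCA, so that 16.3% was left (log2 fold change -2.07, limma adjusted p = 8e-07).
Rad54l, a motor protein that moves along DNA during strand exchange, had 18.6, 16.9, 17.1 and 17.7 TPM and then 3.91, 4.21, 5.60 and 4.18 TPM (log2 fold change -1.77, limma adjusted p = 3.4e-07). Its exons share 1184 bases with Lrrc41 on the opposite strand, and the sources used here do not state whether counting used the strand. Lrrc41 itself was higher with LPS + UDCA, at 46.4 ± 2.27 and 88.4 ± 1.81 TPM.
The proteins RAD51C, RAD51D, XRCC2 and XRCC3 are kin and help strand exchange start. Xrcc2 fell from 3.09 ± 0.425 to 1.07 ± 0.228 TPM (log2 fold change -0.98, limma adjusted p = 9.6e-05), just short of 2-fold on this scale. It was called lower when LPS replicate 2 or 3 or LPS + UDCA replicate 3 or 4 was left out. The same held with median-of-ratios scaling (-1.05), quantile normalization (-1.10) and a pseudocount of 0.1 (-1.46). Xrcc3 fell from 7.88 ± 1.88 to 4.44 ± 0.626 TPM (log2 fold change -0.69, limma adjusted p = 0.0033).
Rad51d rose from 13.6 ± 0.992 to 16.3 ± 0.721 TPM with no overlap (log2 fold change 0.25, limma adjusted p = 0.0071), but with median-of-ratios scaling the log2 fold change was 0.15 and the adjusted p 0.10 from limma. Rad51c had 4.79, 3.99, 3.85 and 4.79 TPM under LPS alone and 4.60, 3.51, 5.18 and 6.19 TPM after LPS + UDCA. The groups overlapped, and the log2 fold change of 0.12 had a 95% interval from -0.21 to 0.44 (limma adjusted p = 0.48).

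All 4 genes placed here as Fanconi anemia genes had lower levels with LPS + UDCA, without overlap, as had 29.9% of all genes tested. Fanconi genes outside the 31 went both ways. Named after their values were seen, Fancg was called lower (log2 fold change -1.02) and Fancl rose (0.63). Fanca, a subunit of the core complex, lies on chromosome 8 from 123268300 to 123318576 and had 11.5, 8.28, 14.1 and 11.7 TPM under LPS alone and 3.79, 3.39, 4.11 and 5.04 TPM after LPS + UDCA (log2 fold change -1.28, limma adjusted p = 5.9e-05). Its exons share 920 bases with Zfp276 on the opposite strand, which had 4.86 ± 0.52 and 5.09 ± 0.607 TPM.
FANCD2 and FANCI form the clamp that the core complex marks with ubiquitin. Fancd2 had 6.90, 7.33, 5.84 and 6.70 TPM under LPS alone and 3.48, 2.55, 2.37 and 2.28 TPM after LPS + UDCA (log2 fold change -1.08, limma adjusted p = 3.1e-05). Fanci had 2.25, 1.76, 1.76 and 1.98 TPM and then 0.51, 0.50, 0.35 and 0.47 TPM (log2 fold change -1.01, limma adjusted p = 5.6e-05), and without LPS replicate 1 or LPS + UDCA replicate 3 it was short of 2-fold, at -0.96 and -0.97. Of its 31-base words, 14.2% also occur in other genes, most of them in Polg, which overlaps it and had 16.98 ± 1.36 and 12.95 ± 1.77 TPM.
Fancb, a further core complex subunit, was tested only without the filter. It had 1.25, 0.92, 0.88 and 1.21 TPM under LPS alone and 0.31, 0.24, 0.38 and 0.46 TPM after LPS + UDCA (log2 fold change -0.61, limma adjusted p = 0.00074).

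Rad18, the ubiquitin ligase that marks PCNA for lesion bypass, and Msh6, which recognises mismatched bases, changed least among the genes that fell. Rad18 had 14.5, 10.8, 10.5 and 14.3 TPM under LPS alone and 8.10, 8.30, 10.3 and 10.3 TPM after LPS + UDCA. The highest LPS + UDCA library was just under the lowest LPS library, and the log2 fold change of -0.39 had an adjusted p of 0.019 from limma, which reached 0.055 when one library was left out (over 0.05 without LPS replicate 1 or 4 or LPS + UDCA replicate 1 or 2). Msh6, at 25.6 ± 0.939 and 21.6 ± 1.08 TPM, had a log2 fold change of -0.23 (limma adjusted p = 0.0029), and 10.8% of its 31-base words also occur in other genes.

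Ratios between genes whose proteins are partners or kin depend little on the scaling of a library, and 11 such pairs were compared as log2 ratios of TPM + 1 within each library. With 70 ways to arrange the libraries, the exact permutation test can give no 2-sided p under 0.029, and after Benjamini-Hochberg adjustment over the 11 pairs no pair was under 0.05. In 5 pairs the groups were fully apart (exact permutation test, p = 0.029 for each, 0.063 after adjustment).
The widest gap was between Rad51d and Xrcc2, which bind each other in 1 complex. Rad51d was listed at 3.49 to 5.52 times the TPM of Xrcc2 in the LPS libraries and at 11.8 to 20.5 times in the LPS + UDCA libraries, and the log2 ratios differed by 1.23. The pair Rad51c and Xrcc3, which bind each other too, had a log2 ratio of -0.71 ± 0.313 with LPS and 0.10 ± 0.42 with LPS + UDCA.
Within the end-binding complex the ratio of Mre11a to Rad50 went from 1.48 ± 0.155 to 1.07 ± 0.168 on the log2 scale and that of Nbn to Rad50 from -0.30 ± 0.178 to 0.05 ± 0.0477. Timeless over Tipin had log2 ratios of -2.97 ± 0.0887 and -3.35 ± 0.083.
The groups overlapped in the other 6 pairs. Chek1 over Chek2 differed by 0.15 (exact permutation test, p = 0.43, adjusted p = 0.56), Atr over Atm by 0.36 (p = 0.14, adjusted 0.26) and Brca2 over Palb2 by 0.40 (p = 0.46, adjusted 0.56). Pairs with a gene averaging under 2 TPM after LPS + UDCA depend on the pseudocount, and with one of 0.1 the difference was 1.72 for Rad51d over Xrcc2 (exact permutation test, p = 0.029) and 0.59 for Brca2 over Palb2 (p = 0.46). For 3 further such pairs, Brca1 over Bard1, Fanci over Fancd2 and Rad51ap1 over Rad54l, that pseudocount moved the p to the smallest possible and turned the sign for Fanci over Fancd2. Their log2 ratios differed by 0.05, 0.07 and -0.30 (exact permutation test, p = 0.66, 0.54 and 0.17), and by 0.76, -0.56 and -0.61 with a pseudocount of 0.1 (p = 0.029 for each).

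**Figure D4:**
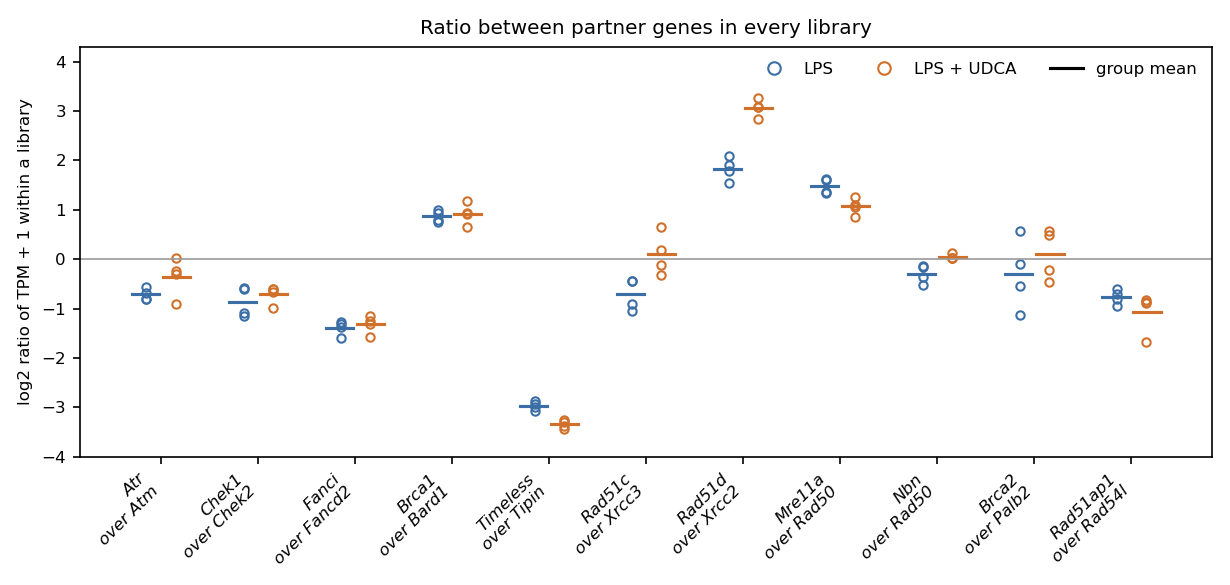
Log2 ratio of TPM + 1 between the genes of each of 11 pairs in every library, with LPS in blue, LPS + UDCA in orange and bars at the group means. The groups are apart for Timeless over Tipin, Rad51c over Xrcc3, Rad51d over Xrcc2, Mre11a over Rad50 and Nbn over Rad50, and overlap for the other 6.

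The rest of the recombination pathway was mixed as well. Over all genes tested, 8.44% were called lower and 8.71% higher, and at the FDR alone 32.3% fell and 40.2% rose. Of 36 further recombination and Fanconi genes tested, 9 were called lower and 0 higher, and at the FDR alone 23 fell and 7 rose (median log2 fold change -0.43, against 0.08 over all genes tested). Eme1, a subunit of a nuclease that cuts recombination intermediates, and Ube2t, the enzyme that gives FANCD2 its ubiquitin, were lowest, at log2 fold changes of -2.39 and -2.25. Of 16 further checkpoint genes, 3 were called lower and 0 higher, 10 fell and 5 rose (median -0.47). Cdc25b and Cdc25c, phosphatases that open the way into mitosis, were lowest, at -3.23 and -1.84. The third was Wee1, the kinase that holds mitosis back, at -1.76, named outside the rule because it completes the count.

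Genes of the other repair pathways went both ways too. Beside them, 8.44% of all genes tested were called lower and 8.71% higher, and 32.3% fell and 40.2% rose at the FDR alone. The FDR counts for end joining and nucleotide excision repair were near those shares. In end joining, which needs no sister chromatid, 0 of 12 genes tested were called lower or higher. At the FDR alone by limma 4 fell and 4 rose, and the median log2 fold change was -0.01. The list holds 13 genes, and 1 was below the level filter and is not in these counts. For that gene every LPS + UDCA library lay below every LPS library. For nucleotide excision repair, which removes bulky lesions, 0 of 19 genes were called lower and 1 higher, Ercc5, at 1.15, while 6 fell and 8 rose at the FDR alone (median 0.11). In base excision repair 2 of 15 were called lower, the glycosylases Ung at -1.56 and Neil3 at -1.40, and at the FDR alone 10 fell and 2 rose (median -0.25). Lesion bypass had 1 of 13 called lower, the polymerase Polh at -1.54, and 3 fell and 7 rose at the FDR alone (median 0.35). Of 6 further mismatch repair genes, Msh3 was called lower at -1.22 and Mlh3 higher at 1.32, and at the FDR alone 4 fell and 1 rose (median -0.54). Whether these lists differ from the recombination genes was not tested.
Most genes of a list of p53 and damage-induced targets rose; p53 is the transcription factor that damage signals stabilise. Of 17 tested, 15 rose, against 40.2% of all genes tested, and 4 were called higher, against 8.71%, while 0 were called lower (median log2 fold change 0.39). The 2 that fell, named after their values were seen, were Trp53 itself, from 204 ± 7.50 to 171 ± 3.24 TPM (log2 fold change -0.25, limma adjusted p = 0.00013), and Bax, a promoter of cell death, at -0.15 (limma adjusted p = 0.0029). Trp53inp1 was highest, from 2.46 ± 0.313 to 11.7 ± 1.34 TPM (log2 fold change 1.87), followed by Sesn2, from 50.7 ± 2.84 to 139 ± 6.22 TPM (1.44). Sesn2 also responds to amino acid shortage and endoplasmic reticulum stress through ATF4.

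**Figure D5:**
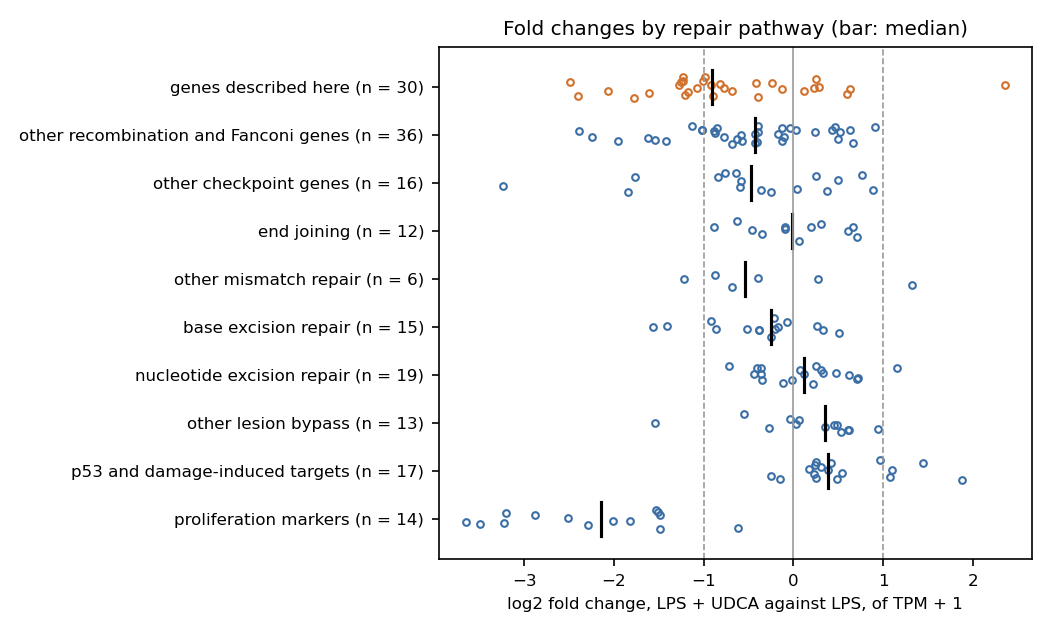
Log2 fold change of TPM + 1, LPS + UDCA against LPS, of each tested gene (circles) by pathway, with the 30 tested genes of the 31 in orange, other lists in blue, a black bar at each list's median and dashed lines at a 2-fold change. The orange median is -0.91, the proliferation markers lie furthest left with a median of -2.15, and end joining is centred near 0.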

How the data were processed

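The authors deposited one table of TPM per gene, kept to 2 decimals, with 1 column for each of the 8 libraries. The unit was read off the values, as the column sums are nearly equal and none exceeds the total that TPM allows. The submitters' processing notes name mm10, GRCm38 and Bowtie 0.12.2, and the counting program, the annotation and the use of strand are not given in the sources used here. Libraries were grouped by their labels. The 31 genes and the lists were chosen with earlier results of these data known, and from each list the highest and lowest 2 genes past both thresholds were named. The model on log2(TPM + 1) was run in limma (version 3.58.1, under R 4.3.3) with lmFit, then eBayes with trend, and p-values were adjusted by the Benjamini-Hochberg method over all 11796 genes tested. The FDR and fold change limits were those of the study's methods. The fold change here was taken on TPM + 1, which makes the limit stricter for genes with few TPM. On simulated data of 11796 genes, 200 of 200 genes changed 4-fold were called, as was 1 unchanged gene. The changed genes were drawn only from those with higher levels. Recovery of genes with few TPM, or of changes smaller than 4-fold, was thus not tried. Positions and shared 31-base words are from GENCODE M21 on GRCm38, in which 55227 of the listed genes were found. Alternatives covered scaling, filter, pseudocount, trend, replicate block and each library left out. Python 3.11.15 was used for tables and figures. A result for 1 gene of the lists is not reported here.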

Additional observations from a re-analysis of the deposited data

Results flagged for a closer look

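In groups of 4 libraries, 6 of 84 sets of values had an outermost library far from its neighbours, where chance gives about 1 in 20, or 4.2, and all 6 lay in the LPS + UDCA group. Bard1 was lowest in LPS + UDCA replicate 1, at 0.31 TPM against 0.36 to 0.37 in the others, a gap of a few steps of the table's decimals. Rbbp8 was highest in LPS + UDCA replicate 4, at 541 TPM against 419.9 to 440.2 TPM. Atm was highest in LPS + UDCA replicate 1, at 5.88 TPM against 3.32 to 3.69 TPM. Chek1 was lowest in LPS + UDCA replicate 2, at 2.17 TPM against 3.0 to 3.17 TPM. The log2 ratio of Nbn to Rad50 was highest in LPS + UDCA replicate 3, at 0.12 against 0.02 to 0.03. That of Rad51ap1 to Rad54l was lowest in LPS + UDCA replicate 3, at -1.68 against -0.89 to -0.83.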

How the results depend on the processing

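No gene changed direction under any alternative. Of the alternative fits of single genes, 446 kept their side of both thresholds together, 9 lost a call and 12 gained one. Genes called lower numbered 7 among genes averaging 5 TPM or more, where fewer genes are tested, and 6 with a pseudocount of 5, which shrinks low genes, against 12 to 14 with one library left out, 16 with median-of-ratios scaling or a pseudocount of 0.1 and 19 at a 1.5-fold minimum. Genes called higher numbered 3 at that minimum. At the FDR alone, 12 fell among genes averaging 5 TPM or more, and 22 fell with median-of-ratios scaling and with quantile normalization. Under each of these settings 3 rose. Without one library the numbers that fell and rose were 20 to 22 and 4 to 5. The median log2 fold change of the genes was -1.01 with median-of-ratios scaling, -0.99 with quantile normalization, -1.08 with a pseudocount of 0.1 and -0.43 with one of 5. Median-of-ratios scaling moved the median of all genes tested from 0.08 to -0.02. With a pseudocount of 0.1 the log2 ratio of Fanci to Fancd2 differed by -0.56, the reverse of its sign, and those of Brca1 to Bard1 and of Rad51ap1 to Rad54l by 0.76 and -0.61. Same-numbered libraries correlated by -0.035 to 0.15 in their deviations from the group means, over 0.1 in 3 of 4 pairs, against 1 of 12 pairs with different numbers, and 5 of 8 libraries correlated best with their own number. Since 1 pair fell short and the labels name no shared batch, the numbers were not taken as pairs. With the replicate number as a block, 13 genes were called lower and 1 higher, and 4 rose at the FDR alone. TPM holds no depth, so counting error for the low genes is unknown.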
